A study of Mus musculus with 2 samples.

Results

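Alveolar type 2 (AT2) cells are the cuboidal epithelial cells of the distal lung that make, store and secrete pulmonary surfactant, the film of lipid and protein that keeps air spaces open at birth. They arise late in gestation from distal tip progenitors that also give rise to alveolar type 1 (AT1) cells, the flat cells of gas exchange, and glucocorticoids are known to hasten the maturation of both. In the adult lung they also release the alarmin IL-33, which is sensed by type 2 innate lymphoid cells (ILC2s).

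The members were chosen by measured values: barcodes with at least 200 genes, at most 5% mitochondrial unique molecular identifiers (UMIs) and 1 dominant hashtag (a singlet), at least 5 UMIs of Sftpb, at least 2 of Slc34a2 and Lyz1 together, and no more than a few UMIs of genes that mark endothelial (Cldn5), mesenchymal (Col1a2, Col3a1), mast or basophil (Hdc) and AT1 (Rtkn2, Gramd2) cells. They numbered 324 of 8598 singlets, and 10648 barcodes were deposited in all. The cells came from lungs of wild type fetuses on gestation day 18. From gestation day 12 their mothers, 9 weeks old, had 1.3 µg/ml of the synthetic glucocorticoid dexamethasone (DEX) in their drinking water, or phosphate-buffered saline (PBS) as the control, and the comparison asks what the glucocorticoid did to these cells. The lungs of a litter were pooled and given 1 hashtag antibody, so that a litter is 1 replicate. The sources differ on the number of dams in each group, and the litters are those the labels give. The DEX litters DEX-1 and DEX-2 had 8 and 9 fetuses, and the PBS litters PBS-1 and PBS-2 had 5 and 8. The suspension had been sorted as live, CD45-positive, lineage-negative and ST2-positive for ILC2s, a gate that should not hold epithelial cells, and the members are therefore those that passed a gate set for other cells.

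The members fell unevenly over the litters, with 25 and 90 in the DEX litters and 49 and 160 in the PBS litters. Values by litter are given for DEX-1 before DEX-2 and for PBS-1 before PBS-2. Their summed UMIs were 419701, 1212444, 714781 and 2316616 in the same order, so that 3 counts correspond to 7.15 CPM (UMIs per 1000000 UMIs of the litter's members) in DEX-1 and to 1.29 in PBS-2. DEX-1, with the fewest cells, is the least precise. The median depth per member was alike, from 12436 UMIs in PBS-1 to 13828 in DEX-1. The hashtag evidence was thinner than in immune-marked singlets. The median UMIs of a member's own hashtag were 76.5, against 1103 in ILC2-marked singlets. Those held at least 1 Gata3 UMI and met the same limits on Cldn5, the collagen genes and Hdc, but had no limit on AT1 or AT2 genes. Mast or basophil-marked singlets held over 3 Hdc UMIs and no Gata3 UMI, with no limit on epithelial genes. The median own hashtag was 729 in these, but 84.5 in AT1-marked singlets with fewer than 5 Sftpb UMIs. In 82 members (25.3%), and in 23.3% of those AT1-marked singlets, the own hashtag was under 5 times the next. That held for 40% of the members of DEX-1 and 36.3% of PBS-2, but for 7.78% and 14.3% in the other two litters. A further 115 barcodes met the gene limits without being singlets, of which 105 had a second hashtag within a factor of 3. Doublets within a litter share a hashtag and were not removed by a caller.

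The limits on other cell types set aside most of the epithelial signal. Of 971 singlets that met the Sftpb and Slc34a2 or Lyz1 limits, 647 exceeded at least 1 limit for another cell type, at a median of 28397 UMIs against 13055 in members. AT1 genes were over their limit in 449 of them, Cldn5 in 273, Hdc in 199 and the collagen genes in 128. Whether such barcodes are doublets or cells with genes of both types was not tested. Near the Sftpb threshold, the 8 members with 5 to 9 UMIs held 53862 CPM of Sftpc, the 6 cells with 3 or 4 UMIs 27091 CPM, and the 316 members with 10 or more 176130 CPM. All but 1 member (323) passed through Slc34a2 alone, and 106 had no Lyz1 UMI. When the gate was drawn without Sftpb, from Slc34a2 and the epithelial genes Epcam and Cdh1, it took 347 cells and 318 of the members.

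The label held against the AT2 markers that the rule did not use. Sftpc, which encodes the surfactant protein specific to AT2 cells in the mature lung, was the leading transcript, at 153176 and 176329 CPM in the DEX litters against 169544 and 180277 CPM in the PBS litters. Every member held a UMI of it. Dlk1, an imprinted Notch ligand of fetal tissues, stood at 9881, 11403, 9038 and 9410 CPM in the same order of litters. Lgi3, a secreted protein of AT2 cells, was found in 98.5% of members at 524 to 661 CPM. The phospholipid transporter Abca3 (295 to 437 CPM), the lamellar body protein Lamp3 (400.3 to 584 CPM) and the protease Napsa (2254 to 2506 CPM), which processes surfactant protein B, were found in 96.9 to 99.4% of members. The lung and epithelial transcription factors Nkx2-1 (353 to 456 CPM), Etv5 (225 to 257 CPM) and Cebpa (212 to 264 CPM) and the adhesion gene Epcam (326 to 424 CPM) were also present in all litters.

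Levels were set beside those of other classes as a description, since the members were selected on several of these genes. Sftpc measured 910 CPM in ILC2-marked singlets and 3634 CPM in AT1-marked singlets with fewer than 5 Sftpb UMIs, against 175167 CPM over all members. After thinning every cell to 6900 UMIs, 100% of members held an Sftpc UMI, but so did 65.1% of ILC2-marked singlets (78.1% unthinned, at a median of 7623 UMIs). ILC2s should lack the gene, though this class had no limit on AT1 or AT2 genes. A single Sftpc UMI is therefore not enough to name an AT2 cell in this suspension. For Sftpa1 the thinned shares were 99.0% and 4.99%, for Lamp3 93.5% and 0.959%, and for Il33 39.2% and 0.0959%. AT1 genes were low but not at 0. Ager, a receptor abundant in AT1 cells, was at 626 to 765 CPM in members against 7236 CPM in AT1-marked singlets with fewer than 5 Sftpb UMIs, and Hopx at 346 to 446 against 5774 CPM. Over all AT1-marked singlets the levels were 4487 and 3679.9 CPM.

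**Figure D1:**
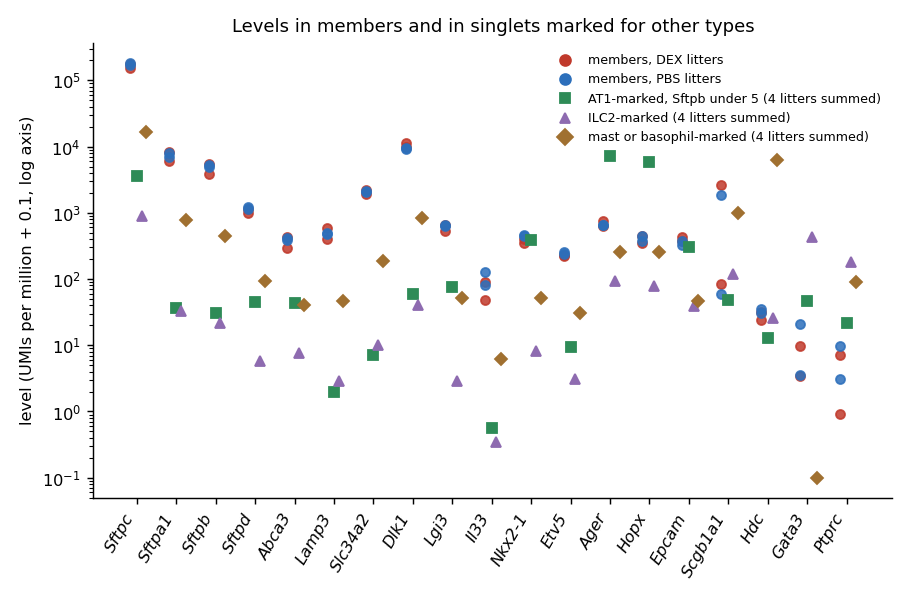
Levels (CPM plus 0.1, log axis) of genes of AT2, AT1, airway and immune cells. Circles are the members of each litter (red DEX, blue PBS), and squares, triangles and diamonds are the summed litters of singlets marked for other types. The 4 litters lie together for the surfactant genes and apart for Scgb1a1 and Gata3. Mast or basophil-marked singlets hold more Sftpc (16760 CPM) than ILC2-marked ones, and neither class had a limit on AT1 or AT2 genes.

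The 20 genes with the largest ratio of members to all other singlets, at 50 CPM or more, described what the members express. They were Il33, Elf5, Lyz1, Dlk1, Klk13, Slc34a2, Mlc1, Lgi3, Sftpb, Chil1, Kcne2, Stx19, Hc, Sftpd, Egfl6, Slc26a9, Dram1, Cftr, Meg3 and Tspan11, at ratios from 8.04 to 10.6. All other singlets include the barcodes that exceeded a limit and still hold AT2 transcripts, so these ratios understate the distance to a pure immune cell. Against ILC2-marked singlets Il33 stood 347-fold higher, although it was one of the weaker genes of the list at 47.7 to 127 CPM over the litters. Elf5, an epithelial transcription factor of the lung tip, was present in 83.3% of members. Chil1 (2225 to 3100.2 CPM) encodes a chitinase-like protein, Hc (424 to 617 CPM) complement component C5, and Cftr (52.4 to 86.7 CPM) and Slc26a9 (52.4 to 81.1 CPM) chloride channels of epithelia. Meg3, the imprinted non-coding partner of Dlk1, was at 1472 to 2028 CPM.

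Promoter windows are printed for the surfactant protein genes Sftpb and Sftpa1, a pair with defined roles in the film whose windows were at hand, from 250 bases before to 50 bases after the RefSeq start (GRCm38.p6). Capitals mark matches, on either strand, to the NKX2-1 cores CAAGTG and CTCAAG, the forkhead motif TGTTTNC and the C/EBP motif TTGCNNAA. Sftpb lies on chromosome 6 (72304610 to 72314371, plus strand) and its window is chr6:72304360-72304659. Sftpa1, the collectin surfactant protein A, lies on chromosome 14 (41131782 to 41136452, plus strand) and its window is chr14:41131538-41131837.
Sftpb: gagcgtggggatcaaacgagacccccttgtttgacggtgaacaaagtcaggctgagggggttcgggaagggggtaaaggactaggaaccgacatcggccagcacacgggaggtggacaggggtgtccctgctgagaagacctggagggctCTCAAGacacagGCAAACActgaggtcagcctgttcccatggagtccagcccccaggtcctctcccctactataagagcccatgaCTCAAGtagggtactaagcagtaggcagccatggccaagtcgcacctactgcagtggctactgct
Sftpa1: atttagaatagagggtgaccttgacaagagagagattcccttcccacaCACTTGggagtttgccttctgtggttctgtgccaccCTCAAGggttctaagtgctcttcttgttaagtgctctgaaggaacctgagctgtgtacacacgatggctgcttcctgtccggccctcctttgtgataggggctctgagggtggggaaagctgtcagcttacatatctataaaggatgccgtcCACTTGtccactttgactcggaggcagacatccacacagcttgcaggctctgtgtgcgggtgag
The Sftpb window holds CTCAAG starting 100 and 15 bases before the start and a forkhead match (GCAAACA) starting 88 bases before it, and the Sftpa1 window holds 3 NKX2-1 cores. One of the cores occurred in 26.4% of all 32851 promoter windows and in 4 of the 18 leading genes with a window, the forkhead motif in 20.5% and 5 of 18, and the C/EBP motif in 10.8% and 6 of 18. The first share counts windows and the second counts genes. Il33, Elf5, Kcne2 and Meg3 had 2 windows each, so the shares are not on the same footing. These matches are descriptions and not sites.

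The secretoglobins and the lysozymes were among the genes in which the members differed most. Over 2708 genes with a mean of at least 0.3 UMIs after thinning, in 291 members deep enough, the median ratio of variance to mean was 1.09. It was 339 for Scgb1a1 and 156 for Scgb3a2, which encode secretoglobins of airway club cells, 133 for Lyz1 and 82.5 for Lyz2. S100a9, at 163, ranked second and rested on 1 cell. Sftpc, at a mean of 1239 ± 293 UMIs (SD over cells), had a ratio of 69.4, and Retnla, a resistin-like secreted protein, 25.4. Sftpb, at 36.9 ± 15.4 UMIs, had a ratio of 6.41, although the rule cut it from below. That was lower than for Sftpc and Retnla but above the median, and ranked 29 among the 2708 genes.

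Lyz1 and Lyz2, neighbouring genes for the antibacterial enzyme lysozyme, were each strongly on in some members and silent in others. They lie on the minus strand of chromosome 10, Lyz2 from 117277331 to 117282321 and Lyz1 from 117287797 to 117292868, with 5475 bases between them. In 6900 UMIs, Lyz1 was at 0 in 111 of 291 members (38.1%, 95% Wilson interval 32.8 to 43.8%), at 1 to 9 in 65 and at 10 or more in 115, where its median was 82 UMIs and its highest value 413. Lyz2 was at 0 in 113, at 1 to 9 in 72 and at 10 or more in 106, with a median of 54.5 and a highest value of 259. A level of 10 or more is called on below. Intervals on shares of cells cover counting error only.

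Over all members, being on for 1 lysozyme went with no higher share on for the other. Both were on in 39 members, Lyz1 alone in 76, Lyz2 alone in 67 and neither in 109. Lyz2 was on in 33.9% of members with Lyz1 on and in 38.1% of the others. Within litters these shares were 16.7 and 27.8% in DEX-1, 27.3 and 41.5% in DEX-2, 42.1 and 46.2% in PBS-1, and 36.8 and 36.3% in PBS-2. The genes are close copies, and reads that fit both cannot be assigned, so low values of either are uncertain. Lyz1 was also part of the rule, though only 1 member depended on it.

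**Figure D2:**
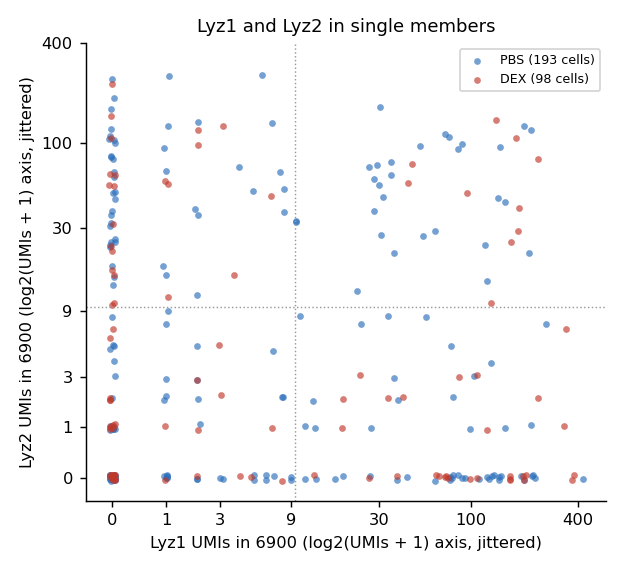
Lyz1 against Lyz2 UMIs in each of 291 members thinned to 6900 UMIs (log2 of UMIs plus 1 on both axes, slightly jittered); red points are DEX and blue points PBS cells, and dotted lines mark the level called on. Members lie along both axes and in every field between the lines, with 39 on for both genes and 109 for neither.

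The windows before the lysozyme genes are printed because the genes are neighbours with unlike patterns. They are chr10:117292819-117293118 for Lyz1 and chr10:117282223-117282522 for Lyz2 (GRCm38.p6, minus strand, read in the direction of the gene), and capitals mark the motifs named for Sftpb.
Lyz1: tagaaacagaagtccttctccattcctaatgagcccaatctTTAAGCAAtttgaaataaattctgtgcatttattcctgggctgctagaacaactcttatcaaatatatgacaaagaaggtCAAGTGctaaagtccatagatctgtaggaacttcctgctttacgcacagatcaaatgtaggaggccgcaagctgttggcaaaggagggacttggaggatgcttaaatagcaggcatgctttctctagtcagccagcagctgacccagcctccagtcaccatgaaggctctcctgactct
Lyz2: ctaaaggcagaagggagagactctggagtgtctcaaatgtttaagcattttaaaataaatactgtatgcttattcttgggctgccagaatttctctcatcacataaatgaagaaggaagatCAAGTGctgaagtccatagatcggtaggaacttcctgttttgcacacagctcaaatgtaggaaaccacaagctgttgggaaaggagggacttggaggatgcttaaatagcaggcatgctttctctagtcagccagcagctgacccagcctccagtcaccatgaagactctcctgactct
At the same position 201 of the 300 bases (67%) were identical, against 31.8 to 34.8% at the best offset for pairs that include a surfactant gene. Both windows hold CAAGTG starting 129 bases before the start. A C/EBP match (TTAAGCAA) starting 209 bases before the start occurs in the Lyz1 window only, among the motifs searched.

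Members with a lysozyme on also differed in other genes, given here as a description over cells of shared litters. Retnla averaged 30.4 UMIs in Lyz1-on members against 17.4 in the others, and 29.6 against 18.5 for Lyz2, higher in all 4 litters for both. Cxcl15, a lung chemokine of epithelial cells, averaged 69.7 against 53.2 UMIs for Lyz1 and 69.7 against 53.9 for Lyz2. Chil1 (22.3 against 16.9 for Lyz1) and Sftpa1 (61.5 against 51.1) were likewise higher in 4 of 4 litters. The AT1 gene Ager was lower, at 3.37 against 5.47 UMIs for Lyz1 and 3.33 against 5.39 for Lyz2, in all 4 litters. Hopx averaged 1.61 against 3.09 UMIs for Lyz1. Abca3, Lamp3 and Sftpd showed no common direction, with higher means in 1 to 3 litters.

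Small groups of members carried genes of other cells. In 6 members, 1 of DEX-1, 1 of DEX-2 and 4 of PBS-2, Scgb1a1 and Scgb3a2 summed to at least 100 UMIs, and these cells held 96.9% of all Scgb1a1 UMIs of the members. They held less Sftpc (48289 against 178752 CPM) and Dlk1 (1459 against 10153 CPM) than the other members. They also held more Cyp2f2 (1108 against 21.6 CPM), a club cell cytochrome, and almost no Lyz2 (7.80 against 3523 CPM). In 12 members the immune genes Ptprc, Gata3, Il7r and Cpa3 summed to over 1 UMI, 2 and 1 in the DEX litters and 4 and 5 in the PBS litters. A single member of PBS-2 held neutrophil genes (at least 10 UMIs of S100a8 and S100a9). Airway and secretory markers summed to 1022 to 9195 CPM per litter, and macrophage and neutrophil markers, mostly through Lyz2, to 1789 to 5055 CPM. Several other lists were low, in part because the rule limited Cldn5, the collagen genes and Hdc. B cell markers summed to 26.6 to 52.4 CPM per litter with 5 of 10 genes at 0, erythroid markers to 1.40 to 11.9 CPM with 5 of 9 at 0, endothelial markers to 46.2 to 103 CPM, mast cell and basophil markers to 95.7 to 196 CPM with 5 of 15 at 0, and mesenchymal markers to 311 to 448 CPM with 1 of 12 at 0. Over all litters the mesenchymal sum was 414 CPM, against 103 CPM in ILC2-marked and 547 CPM in mast or basophil-marked singlets. ILC2 markers summed to 454 to 645 CPM, of which Areg, also an epithelial growth factor, made 326 to 539 CPM.

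The share of singlets that were members was 1.44% (95% Wilson interval 0.98 to 2.12%) and 3.90% (3.19 to 4.78%) in the DEX litters and 2.55% (1.94 to 3.36%) and 6.06% (5.21 to 7.03%) in the PBS litters. The litters of each group spread over more than a factor of 2 and the groups overlapped. The mean was 2.67 ± 1.74% in DEX and 4.30 ± 2.48% in PBS (SD, n = 2 litters each), a difference of -1.63 points with a two-sided exact permutation p of 0.667. With 2 litters against 2 this test cannot go below 0.333. Without PBS-2 the difference was 0.12 points. How many AT2 cells the lungs held cannot be read from them, since the sort selected against epithelial cells and the hashtag rule left out others.

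**Figure D3:**
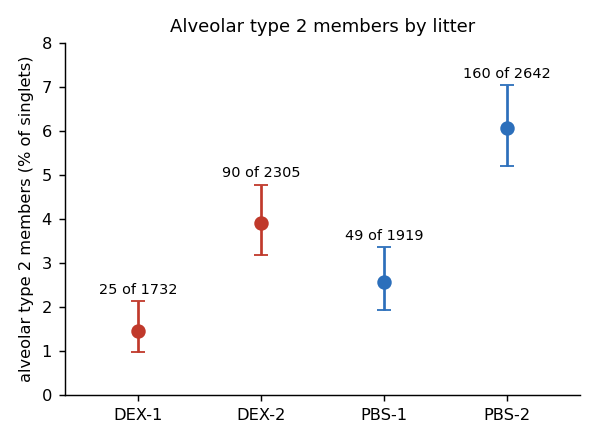
Members as a percentage of singlets in each litter, with 95% Wilson intervals and the counts of cells (red DEX, blue PBS). PBS-2 is highest at 6.06% and DEX-1 lowest at 1.44%, and DEX-2 lies above PBS-1.

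Cycling was read from members thinned to 6900 UMIs, as the share with 3 or more UMIs over a list of 36 cell cycle genes. It was 16.7% (4 of 24 cells) and 14.9% (11 of 74) in the DEX litters and 20.0% (9 of 45) and 14.2% (21 of 148) in the PBS litters. The group means were 15.8 ± 1.27% and 17.1 ± 4.11% (SD, n = 2), with an exact permutation p of 1. Both DEX litters lay between the PBS litters. The median member held 1 UMI of the list in every litter, and 13 members held at least 20 before thinning, 1 in each DEX litter, 5 in PBS-1 and 6 in PBS-2. Mki67, a proliferation marker, was at 31.0 and 7.42 CPM in DEX and 28.0 and 9.93 CPM in PBS litters, with no order by treatment.

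The main comparison, DEX against PBS over the litter sums of the members, called no gene. By the quasi-likelihood F-test of edgeR, 0 of 7606 genes (0%) had an adjusted p under 0.05. DESeq2 and limma-voom also called 0. At an unadjusted p under 0.05 edgeR had 252 genes, 118 with DEX higher (1.55%) and 134 with DEX lower (1.76%), DESeq2 30 and limma-voom 366. In 18.3% of tested genes both DEX litters exceeded both PBS litters, and in 14.1% both were lower. The median log2 fold change of all genes was 0.0034. Leaving out DEX-1 or DEX-2 gave 1 and 3 calls, leaving out PBS-1 or PBS-2 gave 17 and 53, and no gene was called in more than 2 of these 4 fits.

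**Figure D4:**
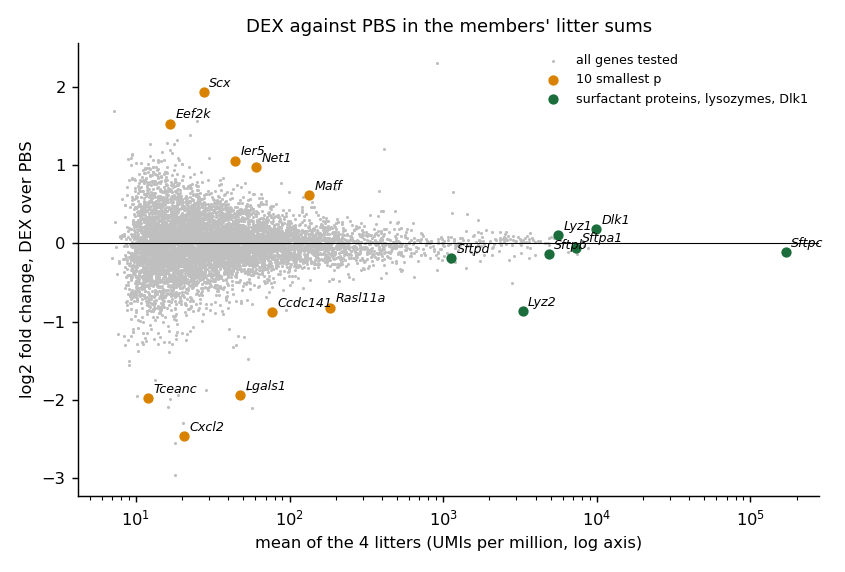
Log2 fold change of DEX over PBS against the mean level of the 4 litters (CPM, log axis) for 7606 genes (grey), with the 10 genes of smallest p in orange and surfactant proteins, lysozymes and Dlk1 in green. The surfactant proteins and Dlk1 lie between -0.19 and 0.18, Lyz2 at -0.87, and genes under about 100 CPM spread widely.

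The surfactant proteins differed little between the groups, and their intervals bound how far they could differ. Sftpc had a log2 fold change of -0.11 (95% interval -0.27 to 0.05). Sftpa1 was at 6078 and 8404 CPM in the DEX litters and 6851 and 7965 CPM in the PBS litters, a log2 fold change of -0.06 (-0.39 to 0.28). Sftpd, the other lung collectin, was at 1132 and 998 CPM against 1242 and 1149 CPM, with both DEX litters lower and a log2 fold change of -0.19 (-0.52 to 0.13). Sftpb, on which the members were selected, was at 3838 and 5515 CPM against 4899 and 5222 CPM and is a description only. For the other 3 the unadjusted p was not under 0.05, and their median of -0.11 stood beside 0.0034 over all genes.

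The list for surfactant processing, storage and secretion was counted without the rule's own Slc34a2 and Lyz1. It had 13 of 15 genes tested and none called. At an unadjusted p under 0.05, 0 were higher and 2 lower, and the median log2 fold change was -0.12. Both DEX litters were below both PBS litters for 5 and above for 0, against 14.1% and 18.3% of all genes. Abca3 was at 295 and 437 CPM in DEX and 411 and 388 CPM in PBS litters (log2 fold change -0.12, 95% interval -0.52 to 0.28), and Lamp3 had a log2 fold change of 0.00 (-0.40 to 0.39). The 2 genes with a p under 0.05 were the chloride channel Cftr, at 52.4 and 66.8 CPM in DEX against 86.7 and 82.0 CPM in PBS litters, and the lysozyme Lyz2. No other gene of the list, Abca3 and Lamp3 among them, had a p under 0.05. The lipid synthesis list, which supplies the phospholipids of surfactant, had 31 of 35 genes tested, 1 lower and 0 higher at that p, and a median of -0.02. Fasn, the fatty acid synthase, differed by -0.05 (-0.40 to 0.30), and Scd1, a fatty acid desaturase, by -0.06 (-0.39 to 0.26). The gene below 0.05 was the desaturase Fads2, at 16.7 and 19.8 CPM against 35.0 and 31.9 CPM. Of 11 glycogen genes tested, 0 passed even the unadjusted p. Glycogen is a store that maturing AT2 cells draw on.

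Lyz2 was lower in both DEX litters, at 1725 and 2951 CPM against 4955 and 3511 CPM in the PBS litters. The log2 fold change was -0.87 ± 0.22 (SE, 95% interval -1.35 to -0.39), with an edgeR adjusted p of 1.00. It held this sign in all 19 alternatives, from -1.33 to -0.54, with adjusted p from 9.59e-08 to 1.00, and passed 0.05 in 4. The share of cells with Lyz2 on after thinning was 25% and 35.1% in DEX litters and 44.4% and 36.5% in PBS litters. The Wilson intervals of DEX-2 (25.2 to 46.5%) and PBS-2 (29.2 to 44.5%) overlap. Lyz2 is also a marker of macrophages and neutrophils, and it made most of that list of 13 genes, which summed to 1789 to 5055 CPM with 2 genes at 0. Without members with over 1 immune UMI (Ptprc, Gata3, Il7r and Cpa3 summed) Lyz2 was at 1918 and 3009.9 against 5551 and 3482 CPM. That limit did not remove all immune transcripts, since Fcer1g, an Fc receptor subunit, was still at 4, 6, 27 and 22 UMIs. The part of macrophages and neutrophils in the Lyz2 difference was not tested. Lyz1, by contrast, was at 3178 and 8537 CPM in the DEX litters, outside both PBS litters at 5372 and 5365 CPM, and its fold change turned from 0.65 without DEX-1 to -0.80 without DEX-2. Retnla was at 1527 and 3138 CPM in DEX against 3349 and 3210 CPM in PBS litters (log2 fold change -0.51, -1.03 to 0.02). Most of that difference lay in DEX-1, which holds 25 cells.

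Transcription factors of alveolar and airway epithelium gave 18 of 20 genes tested, with 0 in either direction at an unadjusted p under 0.05 and a median log2 fold change of 0.10. Nkx2-1, the lineage factor of lung epithelium, was at 407 and 353 CPM in DEX and 439 and 456 CPM in PBS litters, a log2 fold change of -0.27 (-0.61 to 0.07). Etv5, which acts downstream of fibroblast growth factor signalling, differed by -0.14 (-0.46 to 0.18), and Cebpa, a factor of AT2 maturation, by -0.14 (-0.48 to 0.21). Of the AT1 markers that the rule did not use, 15 of 18 were tested, 0 had a p under 0.05 and the median was 0.03, with Ager at 0.05 (-0.30 to 0.39) and Hopx at -0.07 (-0.44 to 0.30). The distal tip progenitor list had 12 of 17 tested, also 0, and a median of -0.08. General epithelial markers had 14 of 14 tested, with both DEX litters above both PBS litters for 7 and below for 0 (18.3% and 14.1% of all genes), a median of 0.18 and 0 at an unadjusted p under 0.05.

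The glucocorticoid receptor and its feedback genes were read next, since DEX acts on this receptor. Nr3c1, the receptor gene, was at 90.5 and 72.6 CPM in the DEX litters and at 68.6 and 59.6 CPM in the PBS litters. Both DEX litters were higher, and the log2 fold change was 0.30 (-0.13 to 0.73). Members held less of it than ILC2-marked singlets, at 67.1 against 292 CPM over all litters. Fkbp5, a chaperone known to be induced by the receptor, was too low to be tested, at 9.53 and 6.60 CPM in DEX and 18.2 and 10.4 CPM in PBS litters. Hsd11b1, which regenerates active glucocorticoid, was also not tested, with 0 and 1 UMIs in the DEX litters and 4 and 3 in the PBS litters. Tsc22d3, a classical target, differed by -0.04 (-0.49 to 0.40) and the clock gene Per1, another, by 0.03 (-0.47 to 0.54). Zbtb16 was at -0.43 (-1.33 to 0.46), the kinase gene Sgk1 at 0.43 (-0.26 to 1.12) and the feedback inhibitor Errfi1 at 0.19 (-0.18 to 0.55).

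Of the list of 30 receptor targets, 21 were tested and 0 called, while 5 were higher and 1 lower at an unadjusted p under 0.05, and the median was -0.04. Both DEX litters were above both PBS litters for 7 and below for 2, against 18.3% and 14.1% of all genes. The metallothionein Mt1 was at 1489 and 1374 CPM in the DEX litters against 669 and 1107 CPM in the PBS litters, a log2 fold change of 0.65 (0.20 to 1.11). Mt2, its neighbour, was at 90.5 and 150.1 against 72.7 and 84.2 CPM, with the same order of groups. Cdkn1a, a cell cycle inhibitor, was at 143 and 87.4 against 63.0 and 60.4 CPM, and Ddit4, an inhibitor of mTOR signalling, at 105 and 68.5 against 51.8 and 56.1 CPM. Cdkn1c, an imprinted cell cycle inhibitor, was at 345 CPM in DEX-1 but only 164 CPM in DEX-2, beside 126 and 157 in the PBS litters, and its log2 fold change of 0.69 (0.11 to 1.27) became 0.16 without DEX-1. The lower gene was Cdc42ep3, at 64.3 and 52.0 against 83.9 and 72.5 CPM.

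**Figure D5:**
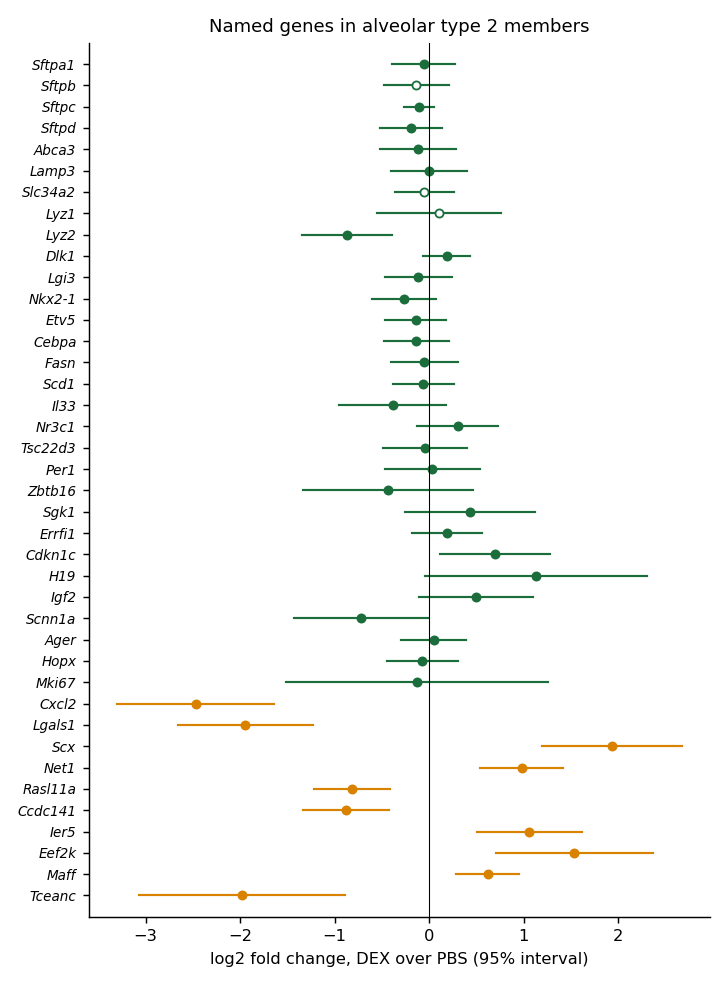
Log2 fold change of DEX over PBS with 95% intervals from edgeR for the genes fixed for naming (green) and the 10 genes of smallest p (orange); open circles are genes that the members were selected on. For 27 of the 30 green genes the interval includes 0, and the exceptions are Lyz2, Cdkn1c and Scnn1a.

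Imprinted genes of fetal growth had 15 of 20 tested and 0 called. In 7 both DEX litters exceeded both PBS litters and in 1 both were lower, beside 18.3% and 14.1% of all genes, the median was 0.23, and 1 (Cdkn1c) had an unadjusted p under 0.05. Dlk1 had a log2 fold change of 0.18 (-0.07 to 0.43). Igf2, a fetal growth factor, was at 50.04 and 39.6 CPM against 22.4 and 33.7 CPM (0.49, -0.11 to 1.10), and shares its strand and place with another annotated gene, Gm49394. H19, the non-coding RNA beside it, was at 14.3 and 13.2 CPM against 2.80 and 7.34 CPM on 6, 16, 2 and 17 UMIs (1.13, -0.04 to 2.30). The list was chosen with earlier results of these data known.

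Ion channels and pumps, which clear fluid from the lung at birth, had 12 of 17 genes tested, 0 higher and 2 lower at an unadjusted p under 0.05 and a median of 0.05. Scnn1a, a subunit of the epithelial sodium channel, was at 45.3 and 19.8 CPM in the DEX litters and 43.4 and 45.8 CPM in the PBS litters. Only DEX-2 was low, and the log2 fold change was -0.72 (-1.43 to -0.02). The other gene was Cftr. Hypoxia and glycolysis genes had 19 tested, with P4ha1, a collagen prolyl hydroxylase induced by hypoxia, higher (157 and 147 against 72.7 and 113 CPM), and a median of 0.03. The airway list had 6 of 17 tested, none with a p under 0.05. Dissociation and stress genes had 20 of 22 tested, a median of -0.16 and both DEX litters below both PBS litters for 5 and above for 1 (14.1% and 18.3% of all genes). Their summed level was 11175 and 13166 CPM in DEX and 12674 and 13963 CPM in PBS litters. Their part in the other comparisons was not tested.

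Epithelial cytokines and host defence genes other than Lyz1 had 19 of 33 tested, with 0 higher and 3 lower at an unadjusted p under 0.05 and a median of -0.21. Il33 was higher in PBS-1 (127 CPM) than in DEX-2 (90.7) and PBS-2 (81.6) and lowest in DEX-1 (47.7), so the groups overlapped, with a log2 fold change of -0.39 (-0.95 to 0.18). The cytokine Csf2, which AT2 cells supply to alveolar macrophages, was at 14.3 and 34.6 CPM in DEX against 85.3 and 51.4 CPM in PBS litters (-1.19, -1.92 to -0.46). Its edgeR adjusted p was 1.00. ILC2-marked singlets held more, 172 to 329 CPM. The others were Lyz2 and Cxcl2.

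The 10 genes with the smallest p were Cxcl2, Lgals1, Scx, Net1, Rasl11a, Ccdc141, Ier5, Eef2k, Maff and Tceanc, with edgeR adjusted p from 0.188 to 1.00. In all 10 the groups did not overlap, beside 18.3% (DEX above) and 14.1% (DEX below) of all tested genes. The 10 were picked by p from these same litters, so their separation is a description only. Those higher in DEX litters were Scx, Net1, Ier5, Eef2k and Maff, and the other 5 were lower.

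Cxcl2, a neutrophil chemokine, was at 7.15 and 5.77 CPM in DEX and 37.8 and 31.9 CPM in PBS litters, on 3, 7, 27 and 74 UMIs, with a log2 fold change of -2.47 (-3.30 to -1.64). All 27 UMIs of PBS-1 came from 1 member, and 47 of the 74 of PBS-2 came from another. ILC2-marked singlets held 653 to 802 CPM. Without the 12 members with over 1 immune UMI (Ptprc, Gata3, Il7r and Cpa3 summed) the counts were 3, 7, 0 and 3 UMIs. The order of the groups thus turned, and the gene could no longer be tested. Immune genes did not share 1 direction. Icos, a costimulatory receptor of lymphoid cells, was at 9.53 and 0.825 against 50.4 and 11.7 CPM. Fcer1g, an Fc receptor subunit, was at 11.9 and 4.95 against 37.8 and 20.3 CPM, and Tyrobp, a myeloid adaptor, at 14.3 and 2.47 against 44.8 and 19.4 CPM. Il7r, a cytokine receptor of lymphoid cells, was at 69.1 and 7.42 against 18.2 and 5.61 CPM, and the ILC2 markers summed to 569 and 642 against 645 and 454 CPM. Of 15 ILC2 markers 5 were tested, of 14 mast cell and basophil markers (Hdc left out) 2 and of 13 macrophage and neutrophil markers 3, with 1, 2 and 2 lower and 1, 0 and 0 higher at an unadjusted p under 0.05. Their part in the differences was not tested.

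Lgals1, a galectin also abundant in immune cells, was at 16.7 and 19.8 CPM in DEX against 97.9 and 56.1 CPM in PBS litters, a log2 fold change of -1.94 (-2.66 to -1.23). Its UMIs lay in 5 of 25, 7 of 90, 15 of 49 and 36 of 160 members. ILC2-marked singlets held 1361 to 1519 CPM. Without the members with over 1 immune UMI, Lgals1 was at 13.5 and 12.8 against 50.2 and 48.8 CPM (log2 fold change -1.95, edgeR adjusted p 0.0639). In the gate without Sftpb the log2 fold change was -0.26.

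Scx, a transcription factor best known from tendon, was at 54.8 and 35.5 CPM in the DEX litters and at 8.39 and 11.7 CPM in the PBS litters (log2 fold change 1.93, 95% interval 1.19 to 2.67, edgeR adjusted p 0.227). It was found in 36% and 25.6% of members in DEX and 12.2% and 14.4% in PBS litters, with at most 7 UMIs in a member. It kept its sign in all 19 alternatives, from 1.51 to 2.30. The gene (chromosome 15, 76457452 to 76459458) lies within the bounds of Bop1 on the opposite strand.

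Net1, a guanine nucleotide exchange factor, was at 78.6 and 82.5 CPM in DEX against 39.2 and 41.0 CPM in PBS litters, a log2 fold change of 0.98 (0.54 to 1.41), and ranged from 0.91 to 1.06 over 19 alternatives. Both groups were tight. Eef2k, the kinase of elongation factor 2, was at 26.2 and 24.7 against 6.995 and 9.06 CPM (1.54, 0.71 to 2.36). The immediate early gene Ier5 was at 45.3 and 72.6 against 29.4 and 29.8 CPM (1.06, 0.50 to 1.62), and Maff, a small Maf factor, at 167 and 159 against 112 and 98.9 CPM (0.62, 0.28 to 0.95). Among lower genes, the small GTPase Rasl11a was at 141 and 125 against 274 and 192 CPM (-0.82, -1.22 to -0.42). Ccdc141, a coiled-coil protein, was at 40.5 and 62.7 against 111 and 94.97 CPM (-0.88, -1.33 to -0.43). Tceanc rested on 1, 7, 16 and 40 UMIs (-1.98, -3.07 to -0.89).

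To see whether the DEX difference in members differed from that in other cells of the same litters, members and ILC2-marked singlets were fitted together with the litter as a term. The interaction was called for 33 of 11757 genes (0.281%), 25 with the difference higher and 8 lower in members. Lyz1 and Slc34a2, on which the members were selected, are among the 33 and are a description only. Of the 33, 25 had a level at least 3 times higher in members. For 24 of these 25, both DEX litters lay below both PBS litters in ILC2-marked singlets. Among those 24 the litters overlapped in members for 21, and for 0 was the unadjusted p in members under 0.05. These genes were picked by the interaction call. How many of all genes had that order of litters in ILC2-marked singlets was not counted. In ILC2-marked singlets alone, 218 of 10773 genes were called by edgeR. Sftpc is the example: 233 and 218 CPM in DEX against 2336 and 897 CPM in PBS litters of ILC2-marked singlets, beside no such order in members. Likewise Sftpa1 was at 7.29 and 8.90 against 79.8 and 35.0 CPM there. ILC2s should lack both genes, but the class had no limit on AT1 or AT2 genes and also held 94.5 CPM of Ager. The part of epithelial barcodes in these calls was not tested. With mast or basophil-marked singlets in place of ILC2-marked ones, 3 genes were called.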

How the data were processed

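Fetal lung cells of 4 litters were read in 1 pool of 10x Genomics 5′ libraries, 1 for genes and 1 for hashtags. The authors used Cell Ranger (version 7) and build mm10, per the labels. What they deposited is a matrix of unnormalized UMI counts that holds genes and hashtags together. Cell Ranger discards reads that fit several genes. Litters were taken from the hashtags that the protocol names. Counts of members were summed per litter and tested with edgeR 4.0.16 (TMM, filterByExpr, quasi-likelihood F-test, two-sided), with Benjamini-Hochberg adjustment, and SE is the log2 fold change over the square root of F. R was 4.3.3, with limma 3.58.1 and DESeq2 1.42.0 as alternatives, and scipy 1.17.1 gave exact permutation tests. Levels are UMIs over the litter's summed UMIs of members, in CPM. P-values measure the spread between litters. The scripts were tested on simulated data.

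Genes named are the 10 of smallest p, since fewer than 5 were called, a fixed set of AT2, glucocorticoid and imprinted genes, the 20 leading genes, and for the interaction the 10 of smallest p. Others are list members with an unadjusted p under 0.05 and genes named after their values were seen (Retnla, Cxcl15, Chil1). The members and lists were chosen with earlier results of these data known. Positions are from GENCODE M21 (GRCm38) by Ensembl identifier. Litter and hashtag cannot be told apart from treatment.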

Additional observations from a re-analysis of the deposited data

Results flagged for a closer look

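The DEX difference was tested against that in ILC2-marked singlets of the same litters, and 33 genes were called by edgeR's interaction term. That class had no limit on AT1 or AT2 genes, and the part of epithelial barcodes in these calls was not tested. How many of all genes had a given order of litters in ILC2-marked singlets was not counted. Of the 10 with the smallest p, 7 are epithelial genes for which both DEX litters lay below both PBS litters in ILC2-marked singlets, and for 6 of these the groups overlapped in members. Krt19, an epithelial keratin, was at 16.0 and 13.9 CPM in DEX and 49.5 and 54.0 CPM in PBS litters of ILC2-marked singlets, beside 281, 214, 168 and 218 CPM in members (edgeR adjusted p 0.000613). Sftpc had a log2 difference of 2.49 (adjusted p 0.000613), Chil1 of 2.17 (0.00217), Sftpa1 of 2.57 (0.00217), Lyz1 of 2.77 (0.00218, a gene the members were selected on and so a description), Ager of 1.70 (0.00267) and the protease gene Ctsh of 1.34 (0.0033). The exception, Ctsh, was lower in both DEX litters of members too. Cxcl2 had a difference of -2.67 (edgeR adjusted p 0.0033), with no order of the litters in ILC2-marked singlets.

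S100a8 (edgeR adjusted p 9.00e-07) had 0 UMIs in the DEX members, 4 in PBS-1 and 326 in PBS-2, where 1 member held neutrophil genes. Cxcl10 (edgeR adjusted p 0.0033) was at 0 in both DEX litters and at 8.39 and 11.7 CPM in PBS members. In ILC2-marked singlets it was at 77.8, 219, 76.0 and 111 CPM. S100a8 and Cxcl10 were too low to be tested in members alone, and entered the joint fit together with the counts of ILC2-marked singlets. Since the DEX members were at 0 no fold is given, and both calls are a description only.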

How the results depend on the processing

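The count of 0 called genes held in 10 of 19 alternatives. These include DESeq2, limma-voom, other size factors, a stricter filter, Sftpb at least 10, the gate without Sftpb and the members with at most 1 immune UMI. The count rose to 43 with no filter on low counts, of which 11 genes were at 0 in 1 group. It was 1 to 53 when a litter was left out, 2 without members over 2 times the median UMIs (Cbr2 and Ube2c), 1 at a hashtag ratio of 5 (Cxcl2) and 5 after thinning (Ier5, Depp1, Mt1, Lyz2 and Cbr2). It was 2 (Cbr2 and Lgals1) without immune, airway and neutrophil-marked members, an alternative chosen after seeing the data, as was leaving out airway-marked members, which gave 0. No gene was called in more than 4 alternatives. The cause was not tested. The litter numbers share only a number (r of 0.001 between the groups' within-group differences over 1021 genes), and with them as a replicate block 0 genes were called. The interaction gave 95 genes with no filter, 88 without immune members, 16 with DESeq2 and 3 against mast or basophil-marked singlets.

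Of 40 named genes, 18 took the other sign in at least 1 alternative. Lyz1 was at 0.65 without DEX-1 and -0.80 without DEX-2, and Cxcl2 at 2.06 in the gate without Sftpb, where 29 added cells held 326 Cxcl2 UMIs. The difference in member share ranged from -3.38 to 0.12 points when a litter was left out (0.12 without PBS-2) and was -0.90 at a hashtag ratio of 5, where DEX-1 had 0.913% and PBS-2 4.27%. That in cycling share was 6.08 points with no thinning, and -4.23 to 1.58 when a litter was left out (1.58 without PBS-1). Depth limits DEX-1 most, where 25 cells set each value.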
